A study of Mus musculus with 5 samples.

Results

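The young L1 families A, Tf and Gf were described by their CpG methylation in 5 mouse libraries. A member was a repeat entry in the CpG context, listed in all 5 libraries, of class LINE/L1 and with a family name that begins with L1MdA, L1MdTf or L1MdGf; members were thus chosen by name and not by level. There were 8607 members among the 46641 repeat entries listed in all 5 libraries, 6391 of them L1MdA, 1232 L1MdTf and 984 L1MdGf. They fell into 12 subfamilies, 7 of A, 3 of Tf and 2 of Gf.

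The libraries were reduced representation bisulfite libraries of genomic DNA from the C57BL6 strain, with 1 library per group. The pESC-PGCLC were primordial germ cell-like cells induced from parthenogenetic embryonic stem cells (pESC), which come from an egg with no sperm genome. The ESC-PGCLC were induced in the same way from female embryonic stem cells (female ESC), through 46 h of epiblast-like culture with activin A and bFGF and 4 days of floating culture with BMP4, LIF, SCF and EGF, and were sorted for CD61 and SSEA1. The PGC were fetal primordial germ cells taken with SSEA1 beads from gonads at E12.5; the labels do not state their sex. The pESC and female ESC were each a single line, kept on feeder cells in serum and LIF medium, and moved to a medium with a reduced dose of the MEK inhibitor PD0325901 before induction. Cell identity could not be checked with these data, which hold no expression, and any share of feeder DNA or gonadal somatic DNA was not tested. With 1 library per group the differences below carry neither replicate errors nor p-values, and each compares 2 libraries. The files give levels without read counts, so depth is unknown.

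L1 is the main self-copying retrotransposon of the mouse. A full element begins with a promoter in its 5' untranslated region, goes on with an open reading frame for an RNA-binding protein and another for a protein with endonuclease and reverse transcriptase activity, and closes with a 3' untranslated region. Most copies lack the 5' end, because copying starts at the 3' end and often stops early. In the mouse the families A, Tf and Gf are told apart mainly by their promoters, which are built of repeated units called monomers, and they hold the copies still able to move. CpG methylation of the promoter is one of the means by which cells keep L1 silent, and primordial germ cells pass through a loss of methylation over most of the genome.

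An entry carries a subfamily name and its first and last base in the consensus of that subfamily, without a genomic position. Each name and span occurred at most once per library, so copies with the same name and the same span could not be told apart. Spans ranged from 24 to 6660 bases, with a median of 1369. The most common last base was 6579, at which 22.7% of members ended. By their first base, 4125 members began within consensus bases 1 to 1000 and are called 5' entries, 3807 began beyond base 5000 and are called 3' entries, and 675 lay between. The level of an entry reflects the CpG sites that the assay covered in it, which cluster at MspI cut sites, and not every CpG of its span.

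Over all members the mean CpG level was 50.5% in pESC-PGCLC, 52.3% in ESC-PGCLC, 48.1% in PGC, 53.7% in pESC and 57.0% in female ESC. The spread between entries was wide, with standard deviations between 14.2 points (PGC) and 15.9 points (female ESC). PGC was the lowest of the 5 libraries at 63.2% of members, and female ESC was the highest at 71.2%. Among the other repeat entries these shares were 54.1% and 63.3%. Methylation was thus intermediate in every library: 205 members (2.38%) were under 20% in all 5, and 27 (0.314%) were at 80% or above in all 5. Among the other repeat entries, 10.2% were under 20% in all 5 libraries.

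The families differed in their means and in their spread. L1MdA averaged 51.2% in pESC-PGCLC, 52.6% in ESC-PGCLC, 48.4% in PGC, 54.2% in pESC and 57.3% in female ESC. L1MdGf stood slightly higher, at 52.2%, 54.6%, 50.5%, 55.6% and 59.7% in the same order of libraries. L1MdTf was the lowest of these families in all 5 libraries, at 45.5%, 48.8%, 44.9%, 49.5% and 53.8%. Its standard deviation between entries in female ESC was 20.5 points, against 14.8 for L1MdA.

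Subfamilies I and II of Tf stood apart from the other 10. L1MdTf_I, with 200 entries, averaged 35.5% in pESC-PGCLC, 38.0% in ESC-PGCLC, 36.1% in PGC, 38.7% in pESC and 43.3% in female ESC. L1MdTf_II, with 236 entries, averaged 35.0% in pESC-PGCLC, 37.7% in ESC-PGCLC, 35.5% in PGC, 38.1% in pESC and 42.6% in female ESC. L1MdTf_III, with 796 entries, was at 51.1% in pESC-PGCLC, 54.7% in ESC-PGCLC, 49.8% in PGC, 55.5% in pESC and 59.8% in female ESC, close to the other families. In each library the lowest mean of the other 10 subfamilies was above both Tf_I and Tf_II.

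Of the Gf subfamilies, Gf_I lay in the middle of the range, and Gf_II was below only A_I and A_II in each library. L1MdGf_I, with 378 entries, was at 49.8% in pESC-PGCLC, 52.5% in ESC-PGCLC, 48.9% in PGC, 52.7% in pESC and 57.7% in female ESC. L1MdGf_II, with 606 entries, was higher in each library, at 53.7% in pESC-PGCLC, 55.9% in ESC-PGCLC, 51.5% in PGC, 57.4% in pESC and 60.9% in female ESC.

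Among the A subfamilies the level was highest in A_I. L1MdA_I, with 349 entries, averaged 62.6% in pESC-PGCLC, 63.3% in ESC-PGCLC, 59.4% in PGC, 66.3% in pESC and 69.4% in female ESC. L1MdA_II, with 757 entries, followed at 56.6%, 57.4%, 53.7%, 60.3% and 64.0% in the same order of libraries. L1MdA_III, with 1624 entries, was at 51.5% in pESC-PGCLC, 53.2% in ESC-PGCLC, 49.0% in PGC, 54.7% in pESC and 58.1% in female ESC. The remaining A subfamilies, which hold more short 3' entries, were closer together. L1MdA_IV (778 entries) had 48.3% in pESC-PGCLC, 49.8% in ESC-PGCLC, 45.2% in PGC, 51.1% in pESC and 54.0% in female ESC. L1MdA_V (411 entries) had 51.7%, 53.5%, 48.9%, 54.3% and 56.9%, and L1MdA_VI (1062 entries) had 48.3%, 49.6%, 45.3%, 50.9% and 54.0%. L1MdA_VII (1410 entries) had 49.0%, 50.0%, 45.9%, 51.6% and 54.0%, so that A_IV, A_VI and A_VII were within 1 point of each other in every library.

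Much of the difference between subfamilies lay in the level or the share of their 5' entries. The 3' entries of the 7 A subfamilies, of both Gf subfamilies and of Tf_III all averaged between 40.7% (A_VI) and 44.8% (Gf_II) in PGC and between 49.2% (A_VII) and 53.9% (Gf_I) in female ESC. The 5' entries of the A family were well above that, at 58.0% in PGC and 67.7% in female ESC (2646 entries), against 41.5% and 49.8% for its 3' entries (3241 entries). The 5' entries of Gf averaged 54.0% in PGC and 63.2% in female ESC, and those of Tf_III 52.5% and 63.3%. From A_III to A_VII the 5' entries were close together, between 65.2% (A_VI) and 67.2% (A_V) in female ESC. The higher mean of all A_III entries beside those of A_VII went with a larger share of 5' entries, 813 of 1624 against 405 of 1410.

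**Figure D1:**
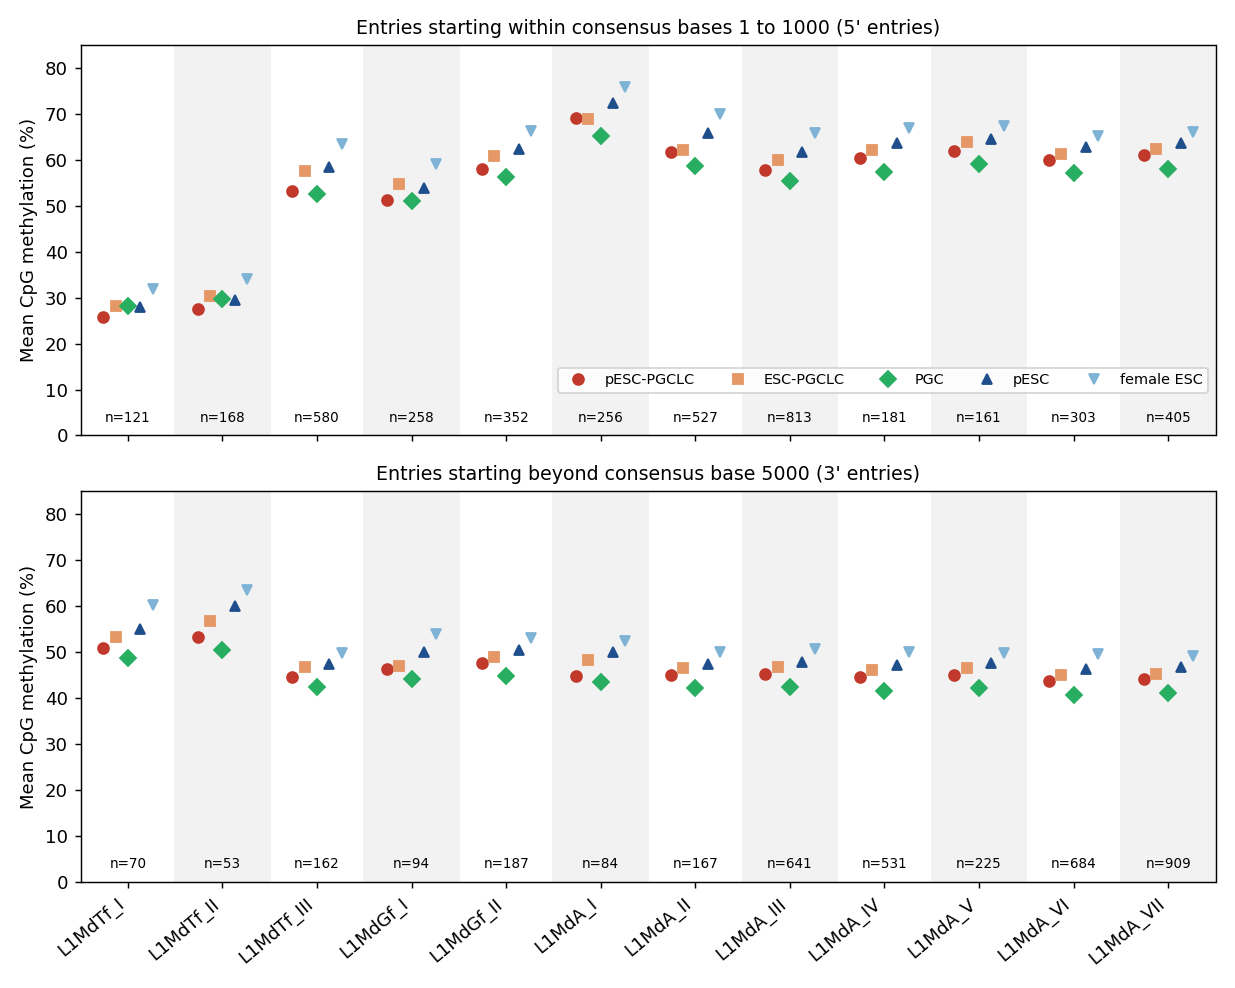
Mean CpG methylation in percent (y axis) of 5' entries (upper panel) and 3' entries (lower panel) of the 12 subfamilies (x axis), with 1 marker per library and the number of entries under each; no error is drawn, as each group has 1 library. In the upper panel Tf_I and Tf_II lie between 25.8% and 34.0%, and A_I between 65.2% and 75.7%; in the lower panel the subfamilies are close together except Tf_I and Tf_II, which are higher.

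With 5' and 3' entries set by these limits, Tf_I and Tf_II were the reverse of the other subfamilies. Their 289 entries that begin within the first 1000 bases averaged 26.8% in pESC-PGCLC, 29.3% in ESC-PGCLC, 29.0% in PGC, 28.8% in pESC and 33.1% in female ESC. Their 123 entries at the 3' end averaged 51.9% in pESC-PGCLC, 54.8% in ESC-PGCLC, 49.5% in PGC, 57.1% in pESC and 61.7% in female ESC. The 5' entries were thus lower than the 3' entries by a difference of -20.5 points in PGC and -28.6 points in female ESC, whereas in A the difference was 16.5 and 17.9 points, in Tf_III 10.1 and 13.4 points, and in Gf 9.40 and 9.92 points. Tf_I and Tf_II therefore had the most methylated 3' entries and the least methylated 5' entries of the 12 subfamilies in all 5 libraries.

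The low mean of the 5' entries of Tf_I and Tf_II went with a large set of entries at low levels beside others at high levels. Of these 289 entries, 111 (38.4%) were under 20% in all 5 libraries. The same was true of 6 of 580 entries of Tf_III (1.03%), 15 of 610 of Gf (2.46%) and 25 of 2646 of A (0.945%). In single libraries, 156 of the 289 were under 20% in pESC-PGCLC, 138 in ESC-PGCLC, 125 in PGC, 147 in pESC and 124 in female ESC. At the other end, 28 of the 289 lay between 60% and 80% in PGC and 51 did in female ESC. Their quartiles in PGC were 14.7% and 40.7%, with a median of 22.7%; in female ESC they were 14.7% and 55.8%, with a median of 23.4%.

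**Figure D2:**
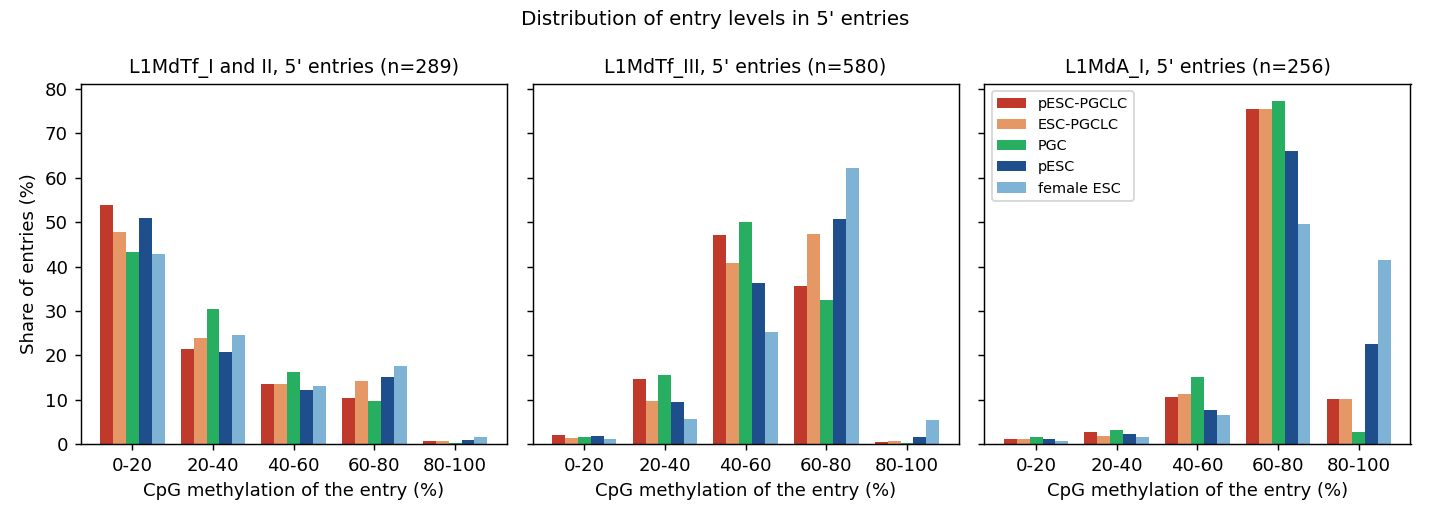
Share of 5' entries in percent (y axis) in each range of 20 points of CpG methylation (x axis), with 1 bar per library, for Tf_I and Tf_II together, Tf_III and A_I. Of the Tf_I and Tf_II entries, 53.98% in pESC-PGCLC and 42.9% in female ESC lie under 20%, while most entries of A_I lie between 60% and 80% in every library except female ESC, where 49.6% do.

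By the first base of an entry, taken in steps of 100 bases at the 5' end, Tf and Gf began low and A began high. L1MdTf entries that begin within bases 1 to 100 (204 entries) averaged 34.1% in pESC-PGCLC, 37.7% in ESC-PGCLC, 36.1% in PGC, 37.2% in pESC and 42.1% in female ESC. Those that begin within bases 401 to 500 (51 entries) averaged 57.2%, 60.9%, 56.4%, 61.7% and 67.2%. In L1MdGf the entries that begin within bases 1 to 100 (111 entries) had 42.0% in pESC-PGCLC, 45.6% in ESC-PGCLC, 44.2% in PGC, 43.9% in pESC and 49.4% in female ESC, and those at bases 401 to 500 (69 entries) had 59.3%, 60.8%, 55.7%, 62.7% and 66.6%. L1MdA ran the other way: entries that begin within bases 1 to 100 (308 entries) had 68.1% in pESC-PGCLC, 67.1% in ESC-PGCLC, 64.6% in PGC, 71.7% in pESC and 74.4% in female ESC, and those that begin within bases 601 to 700 (56 entries) had 52.0%, 53.9%, 48.0%, 55.5% and 58.6%. From bases 101 to 500 A was nearly level, with 58.3% in PGC and 68.0% in female ESC at bases 101 to 200 (291 entries). At bases 401 to 500 (787 entries) A had 57.3% and 67.0%, close to Tf and Gf at the same step. At bases 501 to 600 (90 entries) A was lower, at 50.4% in PGC and 59.0% in female ESC. Subfamilies contribute unequally to these steps, so a step also reflects which subfamilies hold complete copies.

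**Figure D3:**
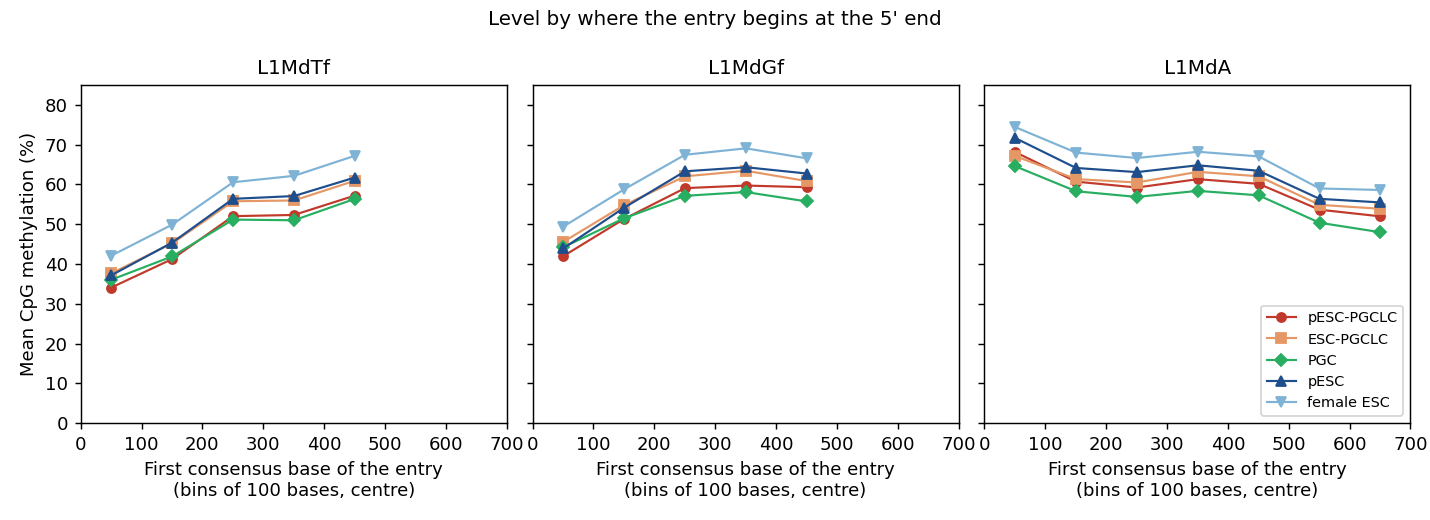
Mean CpG methylation in percent (y axis) against the first consensus base of an entry, in bins of 100 bases (x axis), for L1MdTf, L1MdGf and L1MdA, with 1 line per library; bins with fewer than 20 entries are not drawn. In Tf and Gf the entries that begin nearest to base 1 are the least methylated ones in each library, and in A they are the most methylated ones.

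Entries that span most of the element were those that began within bases 1 to 200 and spanned at least 5000 bases, with any last base. They showed the same contrast. The 112 such entries of L1MdA_I averaged 71.9% in pESC-PGCLC, 71.1% in ESC-PGCLC, 67.8% in PGC, 75.4% in pESC and 77.8% in female ESC. The 72 of L1MdTf_I averaged 21.5% in pESC-PGCLC, 23.2% in ESC-PGCLC, 23.8% in PGC, 22.9% in pESC and 26.2% in female ESC, and the 92 of L1MdTf_II averaged 20.6%, 23.0%, 23.6%, 21.9% and 25.8%. L1MdGf_I lay between, with 38.6% in pESC-PGCLC, 43.5% in ESC-PGCLC, 41.2% in PGC, 40.3% in pESC and 46.6% in female ESC over 82 entries. The 192 of L1MdTf_III were at 50.9%, 55.8%, 50.6%, 56.5% and 61.2%. In Tf_I and Tf_II the PGC library was thus not the lowest: it was above both germ cell-like libraries and above pESC. In L1MdGf_I the PGC library was not the lowest either: it was above pESC-PGCLC and pESC but below ESC-PGCLC. These L1MdGf_I entries were also below the 3' entries of that subfamily (94 entries), which averaged 44.2% in PGC and 53.9% in female ESC.

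When entries were placed by the midpoint of their span in bins of 1000 bases, whole elements lay in the central bins. In L1MdA the mean was 59.2% in PGC and 68.7% in female ESC at bases 1 to 1000, 59.5% and 68.4% at 1001 to 2000, 59.3% and 69.2% at 2001 to 3000, and 55.6% and 65.4% at 3001 to 4000. It was then 42.6% in PGC and 50.7% in female ESC at 4001 to 5000, 42.5% and 50.9% at 5001 to 6000, and 41.3% and 49.6% at 6001 to 7000. The level of A thus dropped at midpoints beyond base 4000, where most entries do not reach the first 1000 bases.

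In L1MdGf the same bins gave 52.7% in PGC and 59.8% in female ESC, 56.4% and 65.9%, 53.7% and 62.8%, 54.1% and 63.9%, 47.9% and 54.8% (22 entries), 44.3% and 54.3%, and 44.5% and 53.4%. In L1MdTf they gave 44.8% in PGC and 54.0% in female ESC, 49.5% and 60.2%, 43.4% and 51.5%, 45.2% and 54.1%, 44.0% and 55.3% (22 entries), 43.4% and 52.6%, and 46.1% and 55.5%. Tf showed no such drop along the consensus; its bins hold the low 5' entries of subfamilies I and II beside higher ones of subfamily III.

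The comparison of PGC with female ESC set fetal germ cells beside stem cells of biparental origin. The mean difference over members was -8.94 points, against -9.44 over all repeat entries, and 93.9% of members were lower in PGC, as were 86.5% of all repeat entries. PGC held 84.3% of the female ESC level. By family the mean difference was -8.90 points in A, -8.96 in Tf and -9.17 in Gf. At least 25 points lower in PGC were 181 members, 2.10% of them, where the background over all repeat entries was 5.12%; 21 members were at least 25 points higher, 0.244% against a background of 0.583%. Both shares were below the background. With levels scaled to an equal mean of all repeat entries, 58 members were at least 25 points lower in PGC and 59 higher, so that the excess of lower members was no longer seen. The share of all repeat entries past this size after scaling was not computed, here or in the comparisons below.

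Within this comparison the 5' entries of Tf_I and Tf_II differed least in points, though not as a share of the level. Their mean difference was -4.07 points, and 190 of 289 (65.7%) were lower in PGC, while the 3' entries of the same subfamilies had a mean difference of -12.2 points. In Tf_III the 5' entries had -10.8 points and the 3' entries -7.50. The 5' entries of A had -9.74 points and its 3' entries -8.35. As a share of the female ESC level, PGC held 87.7% in the 5' entries of Tf_I and Tf_II. It held 85.6% in the 5' entries of A, 85.4% in those of Gf and 82.9% in those of Tf_III. In the 5' entries of A_VII it held 87.9%, so Tf_I and Tf_II did not stand apart on this scale. Entries with a mean over the 5 libraries under 20% hardly differed: those of Tf_I and Tf_II at the 5' end (137 entries) had 14.3% in PGC and 13.8% in female ESC, and the 5191 other repeat entries in that range had 10.2% and 9.56%. The 46 Tf_I and Tf_II entries at the 5' end with a mean between 40% and 60% had 45.5% in PGC and 58.9% in female ESC.

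**Figure D4:**
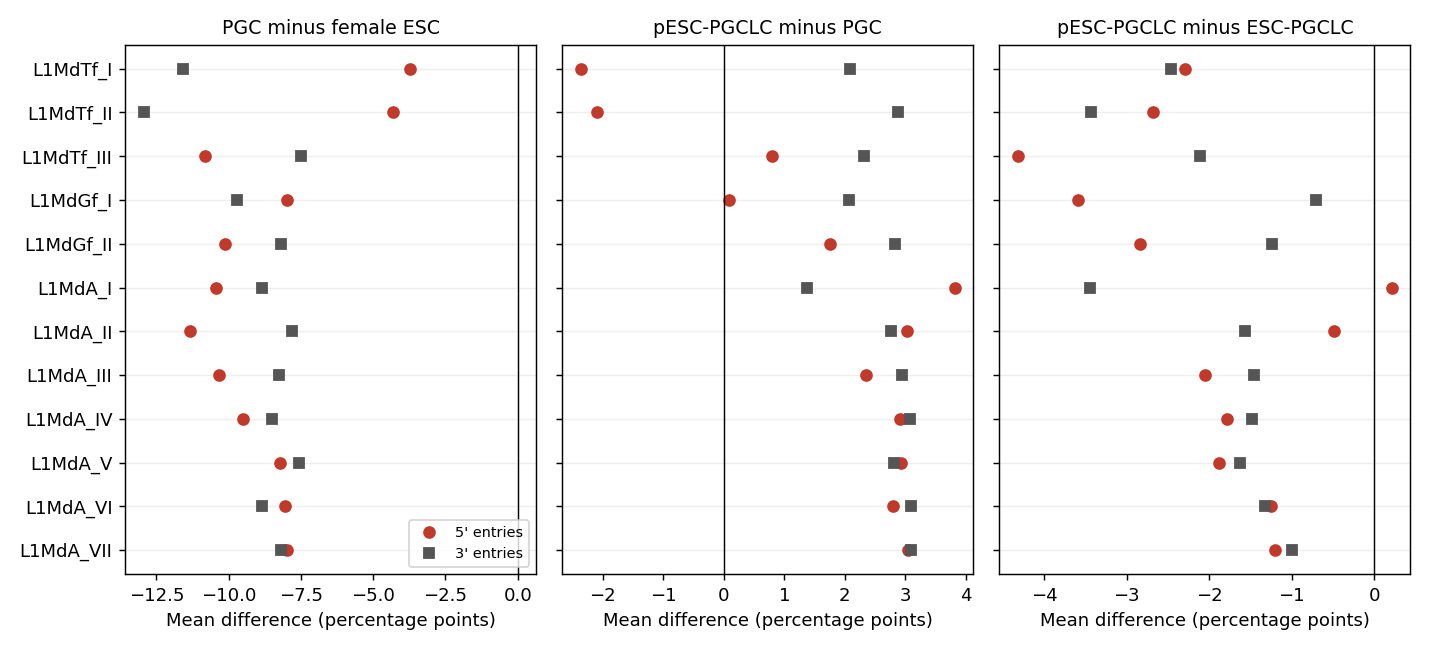
Mean difference in percentage points (x axis) for 5' entries (circles) and 3' entries (squares) of each subfamily (y axis) in 3 comparisons, with 0 drawn as a vertical line; no error is drawn. The 5' entries of Tf_I and Tf_II lie at -3.73 and -4.32 points for PGC minus female ESC, where the other 5' entries lie between -7.99 and -11.3, and they lie at -2.36 and -2.09 points for pESC-PGCLC minus PGC, where the other subfamilies are above 0.

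In the comparison of pESC-PGCLC with PGC, the families differed in size, and some entries at the 5' end of Tf and Gf in direction. Over all members the mean difference was 2.42 points, close to the 2.39 points over all repeat entries. It was 2.88 points in A, 1.68 in Gf and 0.592 in Tf. In A, 22.5% of entries were lower in pESC-PGCLC, in Gf 37.0% and in Tf 45.5%. The 5' entries of Tf_I and Tf_II were below PGC, with a mean difference of -2.21 points and 204 of 289 (70.6%) lower, where 31.3% of all repeat entries were lower. L1MdGf entries that begin within bases 1 to 100 (111 entries) also had a negative mean difference, -2.23 points. Entries that span most of the element had -2.60 points in L1MdGf_I (82 entries) and 0.534 in L1MdGf_II (47 entries). Members at least 25 points lower numbered 24 (0.279%, background 0.377%) and those at least 25 points higher 34 (0.395%, background 0.802%), or 21 with levels scaled to an equal mean of all repeat entries.

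The level of an entry moved with that difference. Among entries with a mean over the 5 libraries under 20%, pESC-PGCLC minus PGC was -3.82 points in the 5' entries of Tf_I and Tf_II and -0.999 in the other repeat entries. Among entries between 20% and 40%, the differences were -4.32 points over 69 Tf_I and Tf_II entries and 1.38 points over 9220 other repeat entries. Between 60% and 80% they were 2.90 points over 36 entries and 4.16 points over 6867. The part of the level in the difference was not tested further.

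For ESC-PGCLC set against PGC, the question was how induced cells of the biparental line stand beside fetal germ cells at L1. ESC-PGCLC was higher by a mean of 4.15 points over members, against 4.49 over all repeat entries. By family the difference was 4.21 points in A, 4.10 in Gf and 3.89 in Tf. It was 5.11 points in the 5' entries of Tf_III and 0.318 in those of Tf_I and Tf_II. Of the latter, 153 of 289 (52.9%) were lower in ESC-PGCLC, against 21.6% of all repeat entries. Those with a mean over the 5 libraries under 20% had -2.45 points, and other repeat entries in that range -1.04. Between 20% and 40% the differences were -0.264 and 3.51 points, and between 40% and 60% they were 6.38 and 5.96. The part of the level was not tested. Members at least 25 points lower numbered 19 (0.221%, background 0.283%) and those at least 25 points higher 48 (0.558%, background 1.13%), or 25 with that scaling.

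Before induction, the parthenogenetic line was set against the biparental one. The mean difference over members was -3.34 points, against -3.94 over all repeat entries, and 80.9% of members were lower in pESC, as were 76.6% of all repeat entries. It was -4.37 points in Tf, -4.09 in Gf and -3.03 in A. In 5' entries the mean difference was -4.29 points for Tf_I and Tf_II, -4.97 for Tf_III, -4.56 for Gf and -3.41 for A. Relative to female ESC, pESC held 87.0% of the level in the 5' entries of Tf_I and Tf_II. It held 92.2% in those of Tf_III, 92.8% in those of Gf and 95.0% in those of A. Members at least 25 points lower numbered 63 (0.732%, background 1.69%), or 41 with that scaling, and 31 were at least 25 points higher (0.360%, background 0.753%).

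After induction the same lines were compared again. The mean difference of pESC-PGCLC and ESC-PGCLC was -1.74 points over members and -2.10 over all repeat entries, with -3.30 in Tf, -2.43 in Gf and -1.33 in A. The 5' entries of Tf_III had a mean difference of -4.32 points, with 473 of 580 (81.6%) lower in pESC-PGCLC, where 66.2% of all repeat entries were lower. Those of A_I had 0.214 points. Between these, the 5' entries of Gf_I had -3.59 points and those of A_II -0.488. Members at least 25 points lower numbered 45 (0.523%, background 0.823%), and 25 were at least 25 points higher (0.290%, background 0.459%).

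Induction of germ cell-like cells went with lower L1 methylation in both lines. ESC-PGCLC minus female ESC had a mean of -4.79 points over members and -4.95 over all repeat entries, with -4.69 in A, -5.07 in Tf and -5.07 in Gf. Of the subfamilies, A_II had the largest difference, -6.59 points, and A_V the smallest, -3.36. At least 25 points lower were 100 members (1.16%, background 2.23%), and 28 were at least 25 points higher (0.325%, background 0.804%), or 48 with that scaling.

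In the parthenogenetic line pESC-PGCLC minus pESC had a mean of -3.19 points over members and -3.11 over all repeat entries. It was -3.00 points in A, -3.99 in Tf and -3.41 in Gf. Here Tf_III had the largest difference, -4.45 points, and A_VII the smallest, -2.60. At least 25 points lower were 54 members (0.627%, background 0.879%), and 14 were at least 25 points higher (0.163%, background 0.339%), or 29 with that scaling. The change of the parthenogenetic line minus that of the biparental line was 1.60 points over members and 1.83 over all repeat entries, with 2.89 points in A_II and 0.633 in Tf_III; this difference was not tested.

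Other repeat groups were set beside the young families. The older L1Md families F, Fanc, Mus, N and V (8865 entries) averaged 45.8% in PGC and 55.2% in female ESC, so that PGC held 83.0% of the female ESC level. Lx and other L1 (3704 entries) averaged 39.0% and 50.4%, and PGC held 77.4%. Entries of IAP (935), an endogenous retrovirus known to keep methylation in the germ line, averaged 63.0% in PGC and 70.6% in female ESC, and PGC held 89.3%. The share held by the young L1 families, 84.3%, lay between older L1Md and IAP, and the 12 subfamilies held between 83.3% (Tf_III) and 85.9% (A_V).

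Single entries by their mean over the 5 libraries, among those with a span of at least 100 bases, showed how far members of a family can lie apart. The lowest Tf entry, L1MdTf_I from consensus base 32 to 5586, was at 2.63% in pESC-PGCLC, 2.34% in ESC-PGCLC, 1.75% in PGC, 0.654% in pESC and 0.694% in female ESC. It spans most of the element, though not up to the most common last base, and was close to unmethylated in all 5 libraries. The highest Tf entry, L1MdTf_II from base 314 to 502, was at 89.2%, 88.3%, 82.7%, 84.3% and 89.8%. In A the lowest entry, L1MdA_II from base 5609 to 6599, was at 2.08%, 0%, 2.08%, 0% and 7.41%, and the highest, L1MdA_VII from base 560 to 5594, was at 100%, 88.2%, 89.5%, 86.4% and 100%. In Gf both extremes were 3' entries of L1MdGf_II: the lowest, from base 5636 to 6577, was at 0% in each germ cell and germ cell-like library, 5.00% in pESC and 6.67% in female ESC, and the highest, from base 5908 to 6579, was at 87.5%, 88.9%, 83.3%, 100% and 81.8%.

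The largest single differences were mostly in short 3' entries, several of them listed at exactly 0% or 100%. For pESC against female ESC they were L1MdA_III from base 6295 to 6579 (0% against 83.3%) and L1MdA_IV from base 5818 to 6576 (53.3% against 0%). For ESC-PGCLC against PGC they were L1MdA_VI from base 6063 to 6576 (40% against 100%) and L1MdA_III from base 6295 to 6578 (80% against 14.3%). For pESC-PGCLC against PGC they were L1MdA_III from base 6168 to 6579 (0% against 80%) and L1MdA_VI from base 5987 to 6576 (100% against 42.9%).

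For pESC-PGCLC against ESC-PGCLC they were L1MdA_I from base 5361 to 6579 (33.3% against 100%) and L1MdGf_I from base 5686 to 6579 (80% against 23.3%). ESC-PGCLC and female ESC were farthest apart at L1MdA_VI from base 6231 to 6576 (0% against 80%) and, upward, at the same L1MdA_I entry (100% against 30%). pESC-PGCLC and pESC were farthest apart at L1MdA_IV from base 6149 to 6585 (0% against 60.7%) and at the same L1MdA_VI entry that ends at base 6576 (100% against 46.2%). PGC and female ESC were farthest apart at L1MdTf_I from base 1090 to 5670 (0% against 100%) and at the L1MdA_III entry from base 6168 (80% against 0%). The share of entries at least 25 points apart between PGC and female ESC was 13.3% among the 211 members with a span of at most 250 bases and 1.55% among the 3157 with a span over 4000.

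Non-CpG cytosines in the same entries were nearly unmethylated. The mean level in the CHH context, where a cytosine is followed by no guanine in the next 2 bases, was 0.759% in pESC-PGCLC, 0.787% in ESC-PGCLC, 0.727% in PGC, 0.636% in pESC and 0.648% in female ESC over 8560 members. In the CHG context it was 1.06%, 1.09%, 0.975%, 0.936% and 0.956% over 8565 members. The CHH level of the 5' entries of Tf_I and Tf_II, 0.717% in PGC and 0.642% in female ESC, was close to that of all members. Its differences between libraries were small beside those in the CpG context.

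Entries kept their rank across libraries. Pearson's r over the 8607 members ranged from 0.890 (PGC and female ESC) to 0.931 (ESC-PGCLC and pESC), and Spearman's rho over the same pairs was 0.878 and 0.914. Over the other repeat entries Pearson's r for these pairs was 0.873 and 0.939, so the kept order was not particular to the members. These are descriptions across entries of libraries that share the same reference repeats, and entries are not independent replicates.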

How the data were processed

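Reduced representation bisulfite libraries, 1 per group for 5 groups, were read with Bismark 0.16.3 and Bowtie2 on mm10, per the submitters' processing notes; the sources used here do not give the role of each tool, the coverage filter, or how reads that match several repeat copies were handled. Per region and cytosine context, the authors deposited the methylation level as a fraction between 0 and 1, printed here as percent. Read depth is not in the files, so no interval or floor could be given, and no test was possible with 1 library per group. Levels were averaged over entries with equal weight with pandas 2.3.3 in Python 3.11.15. Standard deviations are between entries. A difference of at least 25 percentage points was used as a size, and checked on simulated levels with an assumed read depth and shifts well past that size. Because the real depth is unknown, that check cannot show how well the size works for these data. Members, the limits of 5' and 3' entries and the other lists were chosen with earlier results of these data known. Named were the families, the subfamilies, the bins of 1000 bases, and single entries with the highest or lowest mean (span of at least 100 bases) or the largest difference in each direction in each of 7 comparisons. Alternatives changed the size, the set of entries, the scaling, the bins and the weights.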

Additional observations from a re-analysis of the deposited data

How the results depend on the processing

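No paired analysis was possible because each group has 1 library. Leaving a library out leaves no comparison. Depth is unknown, and 87 members were listed at exactly 0% or 100% in some library.

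The 7 mean differences kept their sign and moved by less than 1.5 times with the median, with members listed in both libraries of a comparison, without levels of exactly 0% or 100%, with spans of at least 100 bases, and with the CHH level taken out. With the mean difference of all repeat entries taken out, 5 changed sign, to 0.595 points (pESC and female ESC), -0.342 (ESC-PGCLC and PGC), 0.365 (pESC-PGCLC and ESC-PGCLC), 0.155 (ESC-PGCLC and female ESC) and 0.497 (PGC and female ESC), and the other 2 came to 0.0230 (pESC-PGCLC and PGC) and -0.0747 (pESC-PGCLC and pESC).

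Counts at 40 points, lower and then higher, were 14 and 4 (pESC and female ESC), 4 and 12 (ESC-PGCLC and PGC), 5 and 5 (pESC-PGCLC and PGC), 11 and 8 (pESC-PGCLC and ESC-PGCLC), 25 and 9 (ESC-PGCLC and female ESC), 9 and 4 (pESC-PGCLC and pESC), and 28 and 5 (PGC and female ESC). With members listed in both libraries, counts at 25 points were 48 and 84 (ESC-PGCLC and PGC), 53 and 68 (pESC-PGCLC and PGC), 91 and 53 (pESC-PGCLC and ESC-PGCLC), and 94 and 30 (pESC-PGCLC and pESC). Without levels of exactly 0% or 100%, 11 were lower for ESC-PGCLC and PGC and 13 for pESC-PGCLC and PGC, while 17, 9 and 13 were higher for ESC-PGCLC and female ESC, pESC-PGCLC and pESC, and PGC and female ESC. With levels scaled to an equal mean of all repeat entries, 41 were lower in pESC than in female ESC, 58 were lower and 59 higher in PGC than in female ESC, and 25, 21, 48 and 29 were higher for ESC-PGCLC and PGC, pESC-PGCLC and PGC, ESC-PGCLC and female ESC, and pESC-PGCLC and pESC. No background over all repeat entries was computed for the counts in this paragraph.

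Weighting by span moved none of the 60 subfamily means by 1.5 times. The difference between consensus bases 1 to 1000 and 6001 to 7000 was -1.35 points in PGC and -1.52 in female ESC for Tf, and with bins of 500 bases -4.48 and -5.41; by first base it was -3.72 in female ESC. For Gf it was 8.17 in PGC and 6.48 in female ESC, and 13.7 and 13.5 with bins of 500 bases. Alternatives chosen after seeing the data kept the 5' and 3' contrasts with limits of 500 and 5500 bases. The difference of -2.21 points at the 5' entries of Tf_I and Tf_II between pESC-PGCLC and PGC was -0.747 over entries with a mean of at least 20%, and -4.60 with the mean difference of all repeat entries taken out. Under 10% in all 5 libraries were 16 of these entries. The cause was not tested.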

Other observations

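Further young L1 entries were listed in only some of the 5 libraries and were outside the comparisons. Across all libraries 10477 young L1 entries were listed at least once, 82.7% of L1MdA, 81.1% of L1MdTf and 79.9% of L1MdGf in all 5. Listed outside the common set were 1007 entries in pESC-PGCLC, 976 in ESC-PGCLC, 810 in PGC, 776 in pESC and 528 in female ESC. Their mean levels were 46.4% in pESC-PGCLC, 46.9% in ESC-PGCLC, 43.3% in PGC, 51.6% in pESC and 55.3% in female ESC, which keeps PGC lowest and female ESC highest.

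These entries were more often under 20% than the members: 17.4% of them were so in pESC-PGCLC and 7.86% in pESC, the highest and lowest shares of the 5 libraries, where 3.71% and 3.54% of the members were. In L1MdTf the mean of the entries outside the common set was 40.3% in pESC-PGCLC, 45.1% in ESC-PGCLC, 37.7% in PGC, 49.9% in pESC and 53.5% in female ESC. The standard deviation between them, 26.7 points in pESC-PGCLC and 23.9 in female ESC, was wider than that of the members.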
